A study of Mus musculus with 62 samples.

Results

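Microglia are the resident macrophages of the brain parenchyma, and 37 genes that mark these cells or their activation were followed here by genotype at an embryonic and an adult stage. The members were taken by symbol from a list of microglial and activation genes, by a rule that uses no measured value. The list was chosen with earlier results of these data known. All 37 were found among the 27179 genes counted in both tables. They comprised 11 homeostatic and identity genes, 3 lineage genes, 4 complement genes, 8 surface receptors and adaptors, 5 genes of the lysosome, phagocytosis and the oxidase, and 6 activation genes. None of the 37 lies in the chromosome 16 and chromosome 17 segments that Ts65Dn mice carry in an extra copy. The nearest, *Aif1*, which encodes the calcium-binding microglial protein IBA1, is at chr17:35170986-35176083 (GRCm38), outside the extra copy of proximal chromosome 17.

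RNA-seq was carried out on forebrain of embryos at embryonic day E17.5 and on hippocampus of adult mice at 6 weeks, all on a DBA/2J x B6EiC3Sn/J background. At E17.5 there were 8 euploid and 7 Ts65Dn embryos. In adults there were 8 euploid, 7 Ts65Dn and 8 Ts65Dn;Brwd1+/- males, and 8 euploid, 8 Ts65Dn and 8 Ts65Dn;Brwd1+/- females. Ts65Dn is a mouse model of Down syndrome with a segmental trisomy that includes *Brwd1*, which encodes a chromatin regulator with WD repeats and bromodomains. Ts65Dn;Brwd1+/- animals keep the trisomy but carry one mutant *Brwd1* allele, inherited from fathers heterozygous for an induced mutation (repro5), which brings the number of functional *Brwd1* copies back to that of euploid animals. Both alleles are germline and present in every cell, the mothers were Ts65Dn, and no group isolates microglia. By label, the mean *Brwd1* level (log2 CPM, counts scaled to the normalized library size) was 6.87 in female euploid, 7.36 in female Ts65Dn and 7.09 in female Ts65Dn;Brwd1+/- hippocampus, and 6.76, 7.28 and 7.03 in the same order in males. The Ts65Dn;Brwd1+/- means are lowered by female B136 and males B138 and T35, whose extra segments were at the euploid level. These libraries had the lowest *Brwd1* of their groups. Male Ts65Dn B145, also at the euploid level in these segments, likewise lowers its group's mean. Means without these libraries were not computed, so the labelled means do not measure the effect of the mutant allele alone.

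Microglia arise from yolk sac progenitors that enter the brain early in development, and they depend on signalling through the CSF1 receptor and on the transcription factors PU.1 (encoded by *Spi1*) and IRF8. In the healthy adult brain they survey tissue with purinergic and chemokine receptors such as P2RY12 and CX3CR1, prune synapses with the help of complement C1q, and clear debris through lysosomal proteases. On activation they express *Apoe*, *Lpl*, *Spp1*, *Cst7* and the chemokines *Ccl3* and *Ccl4*, while homeostatic genes are often reduced. In whole tissue, fewer microglia and less RNA per microglial cell cannot be told apart.

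PU.1 binds a purine-rich core, and the letters GAGGAA, searched on both strands, were present in the RefSeq promoter windows (250 bases before to 50 after a gene's start, GRCm38.p6) of 17 of the 28 members that have one, or 60.7%, against 31.3% of 27025 genes. The longer letters GAGGAAGT, which contain the first motif, were present for 4 of 28 members (14.3%) against 3.69% of genes. A match is a description of the letters only. The stretches around the core, in capitals, are shown for *Ctss* and *Ptprc*, which rose in Ts65Dn females, for *P2ry13*, which was called between euploid sexes, and for the activation gene *Spp1*. They lie at chr3:95526582-95526667 (plus strand), chr1:138175418-138175503 (minus strand), chr3:59210885-59210970 (minus strand) and chr5:104434958-104435043 (plus strand), with the core starting between 48 (*P2ry13*) and 164 (*Ctss*) bases upstream of the RefSeq start that the window belongs to. For *Ptprc* that start is not the outermost one, and the stretch shown lies within the gene's annotated span but outside its exons. *Irf8* and *Fcer1g*, which also rose in Ts65Dn females, have windows without these letters. The match of *Aif1*, which rose in Ts65Dn males, is not shown since it does not lie wholly outside exons.
Ctss: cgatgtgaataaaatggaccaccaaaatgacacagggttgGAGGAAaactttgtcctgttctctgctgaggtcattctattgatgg
Ptprc: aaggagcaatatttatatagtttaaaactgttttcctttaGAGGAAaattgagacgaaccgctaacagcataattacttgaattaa
P2ry13: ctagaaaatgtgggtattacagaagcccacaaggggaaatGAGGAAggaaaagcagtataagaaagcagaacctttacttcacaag
Spp1: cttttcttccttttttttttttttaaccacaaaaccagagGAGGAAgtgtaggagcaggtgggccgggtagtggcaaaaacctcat

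Total counts ranged from 14.9 to 62.6 M per library at E17.5 and from 33.6 to 137.1 M in adults. In all, 7 adult libraries stood apart or went against their labels. They were kept under their labels, and values without them are given for only part of the results. In 4 libraries labelled trisomic (male Ts65Dn B145, male Ts65Dn;Brwd1+/- T35 and B138, and female Ts65Dn;Brwd1+/- B136) the genes of the extra segments were at the euploid level, with median log2 ratios of 0.00 to 0.04 where the medians of the trisomic groups were 0.55 to 0.58. The library labelled male Ts65Dn B88 had the sex-linked transcripts of a female, and the library labelled female euploid B85 those of a male. The remaining one, female euploid B125, had the lowest summed markers of astrocytes (3890 CPM) and neurons (11019 CPM) of its group. Female Ts65Dn;Brwd1+/- B176 was similarly low, at 3569 and 11659 CPM. It was not set apart in this way and was left out only in turn with every other library. Markers of the choroid plexus, which borders the hippocampus, varied widely between adult libraries, summing to between 32.8 and 6320 CPM.

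The tissue expressed the 3 defining markers *Cx3cr1*, the fractalkine receptor, *P2ry12*, the ADP receptor of surveying microglia, and *Tmem119*, a membrane protein of parenchymal microglia. Their summed level had a median of 19.6 CPM in both E17.5 groups, with a range of 14.2 to 25.4 CPM over all embryos, and was 92.0 to 126 CPM in adult libraries. Per kilobase of exon, *Cx3cr1* had a mean of 2.19 CPM in E17.5 euploid forebrain, 11.6 CPM in male and 10.1 CPM in female euploid hippocampus. *Tmem119* had 1.51, 10.3 and 9.58 CPM per kilobase in the same order, and *P2ry12* 2.40, 14.5 and 12.9. Of 34 members compared in euploid animals, 31 were higher in male and 32 in female hippocampus than in E17.5 forebrain, with a median difference in log2 CPM of 1.36 and 1.37. The difference was lowest for *Spp1*, which encodes the secreted protein osteopontin (-0.75 in males and -0.70 in females), and highest for *Selplg*, which encodes a selectin ligand (4.49 and 4.35). *Selplg* had only 6 to 41 reads in the euploid embryos. The member higher in females but not in males was *Sall1* (0.16 and -0.07), at a mean of 5.20 log2 CPM in E17.5 euploid forebrain. Its female mean includes B85, labelled female euploid, at 6.96 log2 CPM, where the other female euploid libraries had a median of 5.16. The stages differ in tissue as well as age and were normalized in separate tables, so these differences carry no test.

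Per kilobase, *Apoe*, which encodes a lipid carrier that astrocytes also make in large amounts, was the most abundant member, with means of 101 CPM per kilobase in E17.5 euploid forebrain and 721 and 747 in male and female euploid hippocampus. The C1q subunit gene *C1qa* followed in adults (45.2 in males and 42.4 in females), then the lysosomal protease cathepsin S gene *Ctss* (40.8 and 38.3) and the growth factor receptor gene *Csf1r* (18.6 and 17.6). *Sall1*, a transcription factor of microglial identity that neural progenitors also express, had 7.06 CPM per kilobase at E17.5, and 6.67 and 8.80 in adult males and females. The female mean is raised by library B85, which had the sex-linked transcripts of a male. At the other end, *Cst7*, which encodes the protease inhibitor cystatin F, and the chemokine genes *Ccl3* and *Ccl4* had at most 21, 26 and 23 reads in any library. *Ccl3* and *Ccl4* also overlap in the annotation, so reads may not be assigned between them with certainty.

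The first comparison asked whether microglial transcripts differ between Ts65Dn and euploid forebrain before birth. None of the 35 members tested passed the threshold, an edgeR quasi-likelihood adjusted p under 0.1, where 1.35% of all genes did. Only *Apoe* had an unadjusted p under 0.05, a level that 12.1% of all genes reached, and DESeq2 called no member. In Ts65Dn 17 of the 35 were higher and 18 lower, and both the members and all genes had a median log2 fold change of -0.01.

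The homeostatic genes, which include the receptors of surveying microglia, had 4 of 11 higher in E17.5 Ts65Dn and a median log2 fold change of -0.01. *Cx3cr1* ranged from 3.15 to 3.53 log2 CPM in euploid embryos, with a median of 3.30, and from 2.85 to 3.72 in Ts65Dn, with a median of 3.19 (log2 fold change -0.01, SE 0.11, adjusted p = 0.975). *P2ry12* ranged from 2.27 to 2.95 (median 2.57) in euploid and from 1.89 to 3.01 (median 2.48) in Ts65Dn embryos, a log2 fold change of -0.16 (SE 0.17, adjusted p = 0.697). The Ts65Dn values of both genes reached above and below the whole euploid range. *Tmem119* varied more between euploid embryos, from 0.08 to 3.14 log2 CPM, than between Ts65Dn embryos, from 1.73 to 2.32. Its log2 fold change was 0.22 (SE 0.30, adjusted p = 0.763), and 0.10 to 0.56 with 1 library left out. The highest euploid value was that of replicate 3, the next being 2.03, and the lowest, of replicate 1, rested on 18 reads. *Selplg* was the homeostatic gene with the lowest fold change (-0.29, SE 0.28, adjusted p = 0.653), at 5 to 42 reads per library.

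Among the activation genes, *Apoe* had the smallest p at E17.5. It ranged from 7.35 to 8.28 log2 CPM (median 7.74) in euploid and from 7.80 to 8.30 (median 7.90) in Ts65Dn embryos, with a log2 fold change of 0.28 (SE 0.13, unadjusted p = 0.0448, adjusted p = 0.403 by edgeR). The groups overlapped, although every one of the 7 Ts65Dn embryos exceeded the median of the euploid embryos. *Lpl*, which encodes lipoprotein lipase, ranged from 3.83 to 5.34 (median 4.81) in euploid and from 2.62 to 5.01 (median 4.15) in Ts65Dn embryos, a log2 fold change of -0.48 (SE 0.28, adjusted p = 0.494). *Ccl3* had a log2 fold change of -0.52 (SE 0.34, adjusted p = 0.529) at a few reads per library. *Spp1* had the largest spread: 1 euploid embryo (replicate 3) was at 5.22 log2 CPM while the euploid median was 1.90 and the Ts65Dn embryos lay between 2.05 and 2.88. Its fitted log2 fold change was -0.60 (SE 0.60, adjusted p = 0.670) with that embryo and 0.52 (SE 0.23, adjusted p = 0.328) without it, so this library set the sign. The same embryo stood apart in tissue makeup, with markers of fibroblasts and mural cells summing to 1192 CPM against 144 to 296 CPM in the other euploid embryos, and with the highest border macrophage sum of the euploid group.

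Lysosomal and complement genes also stayed short of the threshold. *Ctss* ranged from 2.37 to 3.20 log2 CPM (median 2.72) in euploid and from 2.73 to 3.36 (median 2.93) in Ts65Dn embryos, and again 7 of 7 Ts65Dn values exceeded the euploid median (log2 fold change 0.25, SE 0.13, adjusted p = 0.458). *C1qa* had a log2 fold change of 0.15 (SE 0.10, adjusted p = 0.524).

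Genes outside the members gave a partly different picture in the same embryos. Of 32 other microglial genes, 23 were higher and 9 lower in Ts65Dn (median log2 fold change 0.11), 1 of those higher being *Runx1*, which lies in the extra chromosome 16 segment, and 1 passed the test: *Ikzf1*, which encodes a transcription factor of blood cells that developing neurons also express, fell by 0.67 on the log2 scale (SE 0.16, adjusted p = 0.0725). Of 9 ligands of microglial receptors 1 passed: *Il34*, which encodes a ligand of the CSF1 receptor made by neurons, rose by 0.47 (adjusted p = 0.0507). Of 8 markers of border macrophages, which live in the meninges and around vessels, 3 rose: *Lyve1* by 0.75 (adjusted p = 0.018), *Mrc1* by 0.56 (adjusted p = 0.0966) and *F13a1* by 0.54 (adjusted p = 0.0633). The summed border macrophage level was 54.7 to 99.7 CPM (median 62.2) in euploid and 75.1 to 110.7 CPM (median 83.2) in Ts65Dn embryos. In the same samples the 8 choroid plexus markers were all higher in Ts65Dn (median log2 fold change 0.78, none passing). Of these, *Clic6* and *Kcne2* lie in the extra segment, and the other 6 had a median of 0.64. Among the remaining markers, *Cdh5* of endothelium (0.48, adjusted p = 0.0166) and *Gja1* of astrocytes (0.59, adjusted p = 0.033) rose. Whether these other cell types bear on the values of members that they share with microglia, such as *Apoe* and *Ctss*, was not tested.

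**Figure D1:**
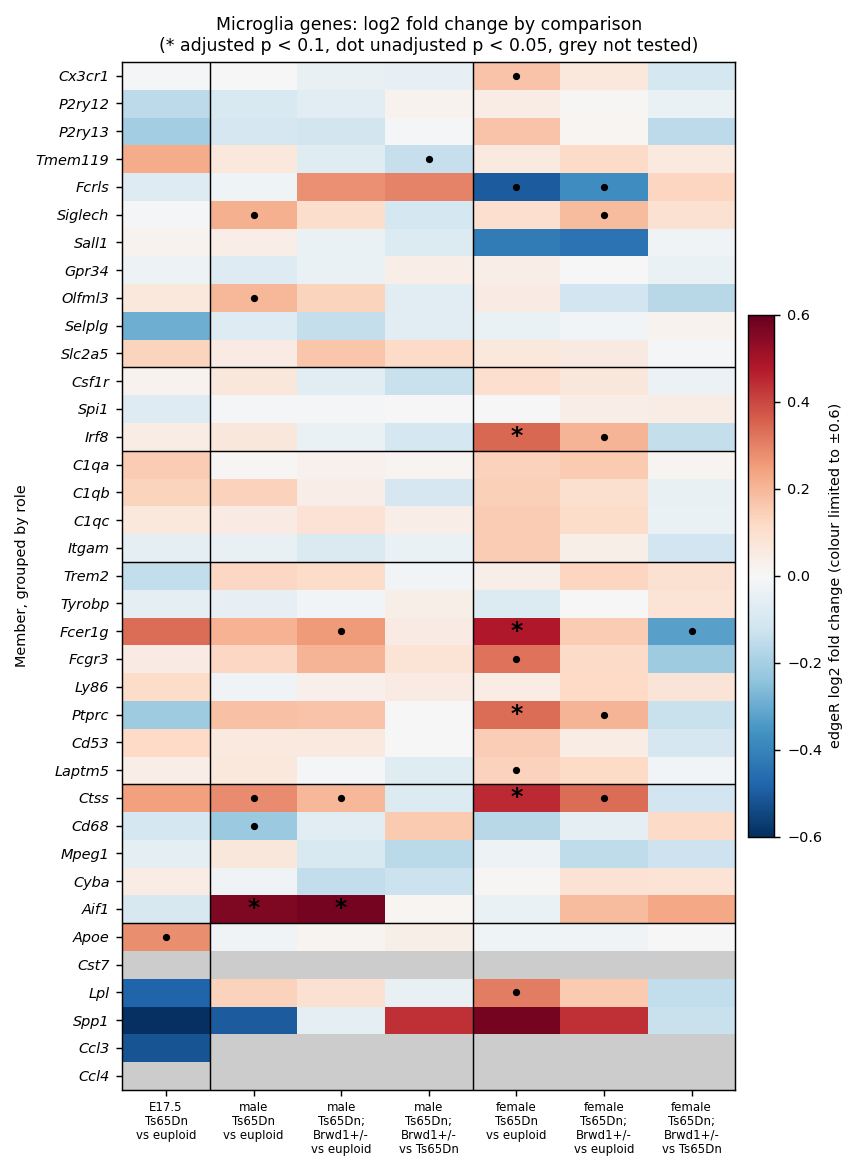
Heatmap of the edgeR log2 fold change of the 37 microglia genes (rows, grouped by role) in the 7 comparisons of genotype within a stage and sex (columns), with colour limited to 0.6 in either direction, asterisks at an adjusted p under 0.1, dots at an unadjusted p under 0.05 and grey for genes not tested. Asterisks stand at 4 genes in female Ts65Dn against euploid, at *Aif1* in both male comparisons with euploid, and nowhere at E17.5 or in the comparisons of Ts65Dn;Brwd1+/- with Ts65Dn.

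In adults, the comparisons of Ts65Dn and of Ts65Dn;Brwd1+/- with euploid share the same euploid libraries, and the comparisons of Ts65Dn with euploid and of Ts65Dn;Brwd1+/- with Ts65Dn share the Ts65Dn libraries. In female hippocampus, 4 of the 34 members tested rose in Ts65Dn relative to euploid, *Ctss*, *Irf8*, *Ptprc* and *Fcer1g*, and none fell, where 3.17% of all genes passed the test. The unadjusted p was under 0.05 for 9 members, and for 15.4% of all genes. Of the 34, 25 were higher and 9 lower, with a median log2 fold change of 0.08 against -0.02 over all genes. The homeostatic markers were not among the genes that passed.

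*Ctss* ranged from 5.43 to 6.01 log2 CPM (median 5.63) in euploid females and from 5.73 to 6.48 (median 6.11) in Ts65Dn females. All 8 Ts65Dn females lay above the euploid median, with some overlap of the groups, and the log2 fold change was 0.45 (SE 0.11, adjusted p = 0.0354). *Irf8*, the lineage transcription factor, ranged from 1.68 to 2.05 (median 1.87) in euploid and from 1.99 to 2.50 (median 2.20) in Ts65Dn females. Its groups barely overlapped, again with 8 of 8 Ts65Dn females above the euploid median, and it rose by 0.35 (SE 0.09, adjusted p = 0.0403).

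*Ptprc*, which encodes the leukocyte phosphatase CD45, ranged from 0.91 to 1.63 log2 CPM (median 1.43) in euploid and from 1.39 to 1.84 (median 1.72) in Ts65Dn females, rising by 0.34 (SE 0.09, adjusted p = 0.0725). *Fcer1g*, the shared signalling chain of Fc receptors, ranged from 1.58 to 2.42 (median 1.81) and from 1.89 to 2.68 (median 2.41) in the same order, rising by 0.48 (SE 0.14, adjusted p = 0.0835). The euploid and Ts65Dn ranges of both genes overlapped, with 7 of 8 and 8 of 8 Ts65Dn females above the euploid median. *Ptprc* is also expressed by other leukocytes, of whose 7 neutrophil and lymphocyte markers 2 were high enough to be tested and none passed.

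Without the libraries that go against their labels (female euploid B85 and female Ts65Dn;Brwd1+/- B136 among the females), *Ctss* (0.42, adjusted p = 0.0675), *Irf8* (0.35, adjusted p = 0.0648) and *Ptprc* (0.36, adjusted p = 0.0895) still passed and *Fcer1g* (0.45, adjusted p = 0.16) did not. Leaving out any one of the Ts65Dn libraries B103, T139 and T141 or the euploid libraries B12, B17 and B65 ended the calls of *Ptprc* and *Fcer1g*, and leaving out Ts65Dn B53 or B135 or euploid B85 or B184 that of *Fcer1g*. Without the outlying euploid library B125 the count was 6 of 34, with 9.32% of all genes called. Added were *Fcgr3*, an Fc receptor gene, higher, and *Fcrls*, an Fc receptor-like gene of microglia, lower.

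Among the homeostatic genes of females, 8 of 11 were higher in Ts65Dn and none passed. *Cx3cr1* ranged from 5.27 to 5.69 log2 CPM (median 5.54) in euploid and from 5.48 to 5.79 (median 5.70) in Ts65Dn females, with a log2 fold change of 0.17 (SE 0.06, adjusted p = 0.17). *P2ry12* (0.04, adjusted p = 0.801) and *Tmem119* (0.06, adjusted p = 0.842) had fold changes closer to 0. *Fcrls* went the other way: it ranged from 3.89 to 4.85 log2 CPM (median 4.63) in euploid and from 3.33 to 4.48 (median 3.94) in Ts65Dn females. All 8 Ts65Dn females were below the euploid median of *Fcrls*, but the log2 fold change of -0.50 (SE 0.18, adjusted p = 0.152) did not pass. *Sall1* had a log2 fold change of -0.42 (SE 0.22, adjusted p = 0.357), and of -0.01 (SE 0.07, adjusted p = 0.967) without euploid B85, the library with the sex-linked transcripts of a male, in which *Sall1* stood at 6.96 log2 CPM when the euploid median was 5.17.

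The complement genes of females, C1q subunits and the receptor subunit gene *Itgam*, were all 4 higher in Ts65Dn, between 0.14 and 0.15 on the log2 scale, and none passed. Of the 8 receptors and adaptors 7 were higher, with *Fcgr3* at 0.33 (SE 0.13, adjusted p = 0.229) and *Laptm5*, a lysosomal membrane protein gene of leukocytes, at 0.14 (adjusted p = 0.28). The lysosomal genes were mixed, 2 higher and 3 lower, with *Cd68*, a phagocyte lysosome marker, at -0.17 (adjusted p = 0.362). Of the activation genes, *Lpl* ranged from 5.29 to 6.39 (median 5.90) in euploid and from 5.90 to 6.66 (median 6.19) in Ts65Dn females (log2 fold change 0.31, SE 0.13, adjusted p = 0.227), with 8 of 8 Ts65Dn females above the euploid median. *Spp1* had a log2 fold change of 0.57 with an SE of 0.61, and 3 of 8 Ts65Dn females above the euploid median, and *Apoe* one of -0.03 (SE 0.12, adjusted p = 0.951). *Cst7*, *Ccl3* and *Ccl4* were too low to be tested in either sex.

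Beside these, 26 of 32 other microglial genes were higher and 6 lower in female Ts65Dn (median log2 fold change 0.09), and none passed. Of 18 other activation genes tested 1 passed, the chemokine gene *Ccl6*, which fell by 0.77 on the log2 scale (adjusted p = 0.0725). Of the markers of other cell types, *Nefl*, a neurofilament gene of neurons, rose by 0.26 (adjusted p = 0.0618), and no border macrophage, choroid plexus, endothelial or astrocyte marker passed in this comparison. Border macrophage markers summed to 25.7 to 36.2 CPM in euploid and 22.9 to 39.5 CPM in Ts65Dn females, and choroid plexus markers to medians of 2022 and 594 CPM with ranges that overlapped almost wholly.

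In female Ts65Dn;Brwd1+/- relative to euploid, none of 34 members passed the edgeR test, where 0.729% of all genes did. DESeq2 called no member either, and 5 members had an unadjusted p under 0.05, a level reached by 11.2% of all genes. Of the 34, 26 were higher and 8 lower, with a median log2 fold change of 0.08 against -0.01 over all genes. *Ctss* ranged from 5.77 to 6.34 log2 CPM (median 6.00), with 8 of 8 above the euploid median (log2 fold change 0.33, SE 0.11, adjusted p = 0.241). *Irf8* ranged from 1.86 to 2.27 (median 2.08; 0.21, SE 0.09, adjusted p = 0.379) and *Ptprc* from 1.44 to 1.70 (median 1.57; 0.20, adjusted p = 0.422). Both medians thus lay between those of the other female groups. The markers *Cx3cr1* (0.06, SE 0.06, adjusted p = 0.74), *P2ry12* (0.01, SE 0.06, adjusted p = 0.984) and *Tmem119* (0.12, SE 0.09, adjusted p = 0.676) did not pass. *Siglech*, a sialic acid-binding receptor gene, was at 0.19 (SE 0.07, adjusted p = 0.32), and *Mpeg1*, a phagocyte perforin gene, at -0.15 (adjusted p = 0.709). *Fcrls* (-0.37, adjusted p = 0.433) and *Sall1* (-0.44, adjusted p = 0.446) were lower, the latter at -0.04 without euploid B85. Without euploid B125, *Ctss* passed, with 8% of all genes called.

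The direct comparison of female Ts65Dn;Brwd1+/- with Ts65Dn asked whether removing the extra *Brwd1* copy changes these transcripts on the trisomic background. No member passed the edgeR test, and neither did any other gene (0% of all genes). DESeq2 called no member, and 1 member had an unadjusted p under 0.05, as did 3.52% of all genes. Of the 34 members 13 were higher and 21 lower, with a median log2 fold change of -0.04 against 0.00 over all genes.

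That 1 member was *Fcer1g*, which ranged from 1.44 to 2.35 log2 CPM (median 2.01) in Ts65Dn;Brwd1+/- and had a log2 fold change of -0.33 (SE 0.14, unadjusted p = 0.0282, adjusted p = 1 by edgeR). None of the 8 Ts65Dn;Brwd1+/- females lay above the Ts65Dn median. The other genes that rose in Ts65Dn females had log2 fold changes of -0.11 for *Ctss* (SE 0.11), -0.14 for *Irf8* (SE 0.09) and -0.13 for *Ptprc* (SE 0.09) in this comparison, each with an adjusted p of 1. *P2ry13*, a purinergic receptor gene, was at -0.16 and *Cx3cr1* at -0.11, while *Aif1* was at 0.23 (SE 0.16), *Cd68* at 0.12 and *Siglech* at 0.09. Ts65Dn;Brwd1+/- B136, with the extra segments at the euploid level, is among the libraries compared here. With any 1 library left out no member passed and at most 2 genes did.

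**Figure D2:**
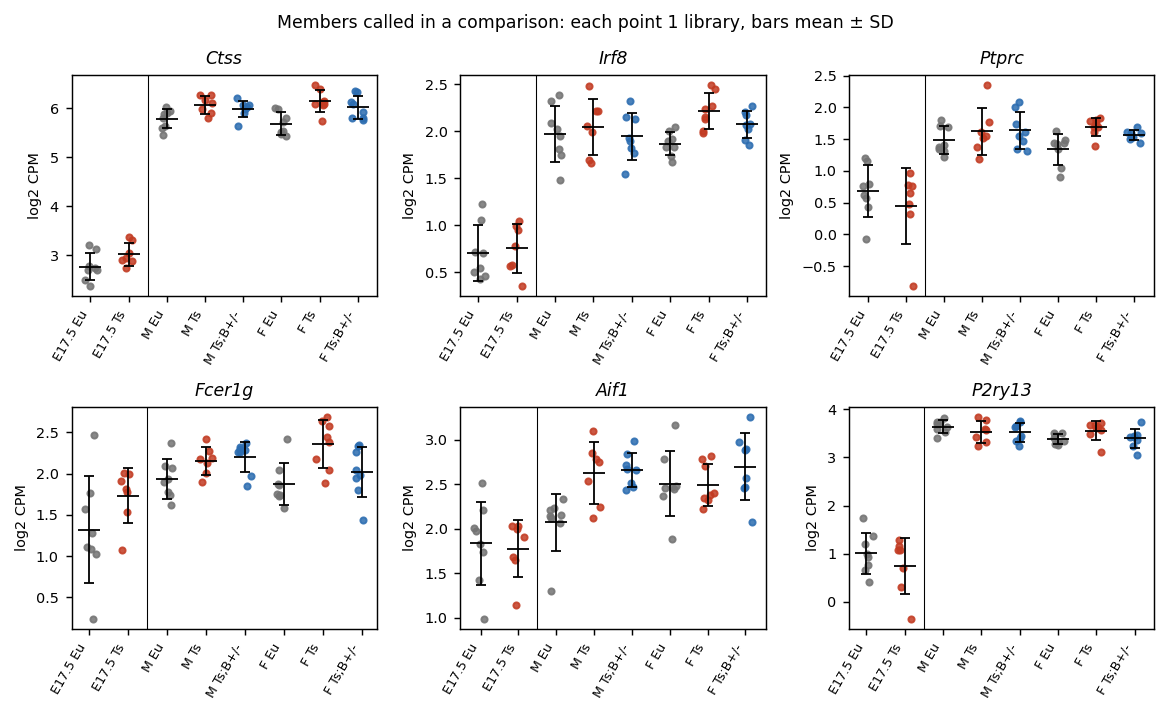
Levels in log2 CPM (vertical axis) of the 6 microglia genes that passed the test in a comparison within 1 stage, by group (horizontal axis; Eu, euploid; Ts, Ts65Dn; Ts;B+/-, Ts65Dn;Brwd1+/-; M, male; F, female), with 1 point per library and bars at the mean ± SD; the line separates the stages, which were normalized separately. *Ctss* medians were 5.63 in euploid and 6.11 in Ts65Dn females, and all 8 male Ts65Dn;Brwd1+/- libraries lie above all 8 male euploid libraries for *Aif1*.

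In male hippocampus, 1 of 34 members, *Aif1*, rose in Ts65Dn relative to euploid, where 0.795% of all genes passed. Of the members 5 had an unadjusted p under 0.05, and of all genes 8.91%. Of the 34, 21 were higher and 13 lower, with a median log2 fold change of 0.05 against 0.00 over all genes.

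*Aif1* ranged from 1.30 to 2.33 log2 CPM (median 2.14) in euploid and from 2.12 to 3.10 (median 2.74) in Ts65Dn males. The log2 fold change was 0.56 (SE 0.14, adjusted p = 0.0761), and 6 of 7 Ts65Dn males lay above the euploid median. The lowest euploid value belonged to library B139. Without it the log2 fold change was 0.48 (SE 0.12) and no longer passed (adjusted p = 0.115), whereas without the libraries that go against their labels it was 0.62 (SE 0.15, adjusted p = 0.0494). Leaving out any one of the Ts65Dn libraries B25, B40, B45 and B52 or of the euploid libraries B80, B84, B95, B110 and B122 also ended the call.

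*Ctss* ranged from 5.46 to 6.02 log2 CPM (median 5.85) in euploid and from 5.80 to 6.27 (median 6.11) in Ts65Dn males, with a log2 fold change of 0.28 (SE 0.09, adjusted p = 0.251). *Cd68* ranged from 2.61 to 3.02 (median 2.92) in euploid and from 2.39 to 2.87 (median 2.65) in Ts65Dn males, with a log2 fold change of -0.22 (SE 0.09, adjusted p = 0.455). In males as in females the *Ctss* values of Ts65Dn animals were mostly above the euploid median (6 of 7), and for *Cd68* no Ts65Dn male was above it. *Siglech* (0.21, SE 0.08, adjusted p = 0.397) and *Olfml3*, a secreted protein gene of microglia (0.20, adjusted p = 0.486), were higher. *Cx3cr1* had medians of 5.74 log2 CPM in euploid and 5.75 in Ts65Dn males (log2 fold change 0.00, SE 0.08, adjusted p = 0.997). *P2ry12* (-0.09, adjusted p = 0.814), *P2ry13* (-0.10, adjusted p = 0.829) and *Tmem119* (0.06, adjusted p = 0.813) also had fold changes near 0. *Spp1* was at -0.50 (SE 0.69, adjusted p = 0.899), with 1 of 7 libraries labelled male Ts65Dn above the euploid median. That library is B88, at 3.43 log2 CPM, which had the sex-linked transcripts of a female. Without B88 the log2 fold change was -1.51 (SE 0.64, adjusted p = 0.338). *Apoe* was at -0.02 (SE 0.07, adjusted p = 0.96) and *Lpl* at 0.14 (SE 0.19, adjusted p = 0.902). By role, 6 of 11 homeostatic genes, 3 of 4 complement genes and 6 of 8 receptors and adaptors were higher in Ts65Dn males, none passing. Of 32 other microglial genes 21 were higher and 11 lower (median log2 fold change 0.03), and of 8 border macrophage markers 1 was higher and 7 lower (median -0.39), none of them passing.

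In male Ts65Dn;Brwd1+/- relative to euploid, *Aif1* was again the 1 member of 34 that passed, where 0.576% of all genes did. The unadjusted p was under 0.05 for 3 members and for 10.1% of all genes. *Aif1* ranged from 2.44 to 2.99 log2 CPM (median 2.66) in Ts65Dn;Brwd1+/- males, all above the highest euploid male, and rose by 0.57 (SE 0.14, adjusted p = 0.0656), or by 0.49 (adjusted p = 0.0919) without euploid B139. The call ended without any one of the Ts65Dn;Brwd1+/- libraries B26, B51, B69, B94 and B137 or the euploid libraries B80, B110 and B122. *Fcer1g* was at 0.26 (SE 0.10, adjusted p = 0.402) and *Ctss* at 0.20 (SE 0.09, adjusted p = 0.431), each with 7 of 8 above the euploid median, while *Selplg* was at -0.14 (SE 0.07, adjusted p = 0.508) with none of 8 above it. *Cyba*, an oxidase subunit gene, was at -0.15 (adjusted p = 0.671) and *Tmem119* at -0.07 (adjusted p = 0.715). Among markers of other cells, *Flt1* of endothelium fell by 0.35, *Slc1a2* of astrocytes by 0.22 and *Pdgfrb* of mural cells by 0.29 on the log2 scale in this comparison.

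Male Ts65Dn;Brwd1+/- did not differ from Ts65Dn at the threshold in any member or any gene (0% of all genes by edgeR, and no member by DESeq2). A single member had an unadjusted p under 0.05, as did 7.48% of all genes. Of the 34 members 15 were higher and 19 lower, with a median log2 fold change of -0.01, as over all genes (-0.01). *Aif1* had a log2 fold change of 0.01 (SE 0.14) and *Ctss* of -0.08 (SE 0.09). The 1 member was *Tmem119*, which ranged from 4.53 to 4.83 log2 CPM (median 4.62) in Ts65Dn and from 4.26 to 4.66 (median 4.51) in Ts65Dn;Brwd1+/- males, with a log2 fold change of -0.14 (SE 0.06, unadjusted p = 0.0255, adjusted p = 0.626 by edgeR). *Fcrls* (0.30, SE 0.17, adjusted p = 0.703), *Cd68* (0.15, adjusted p = 0.708) and *Slc2a5*, a fructose transporter gene of microglia (0.12, adjusted p = 0.886), were higher, and *Csf1r* (-0.13, SE 0.07, adjusted p = 0.671) and *Sall1* (-0.08, adjusted p = 0.773) lower. *Cx3cr1* and *P2ry12* had log2 fold changes of -0.05 and 0.02. Ts65Dn B145 and B88 and Ts65Dn;Brwd1+/- T35 and B138, which go against their labels, are among the libraries compared here. With any 1 library left out no member passed and at most 5 genes did. Without all that go against their labels, *Fcrls* was at 0.21 (SE 0.21) and *Sall1* at -0.13 (SE 0.07).

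**Figure D3:**
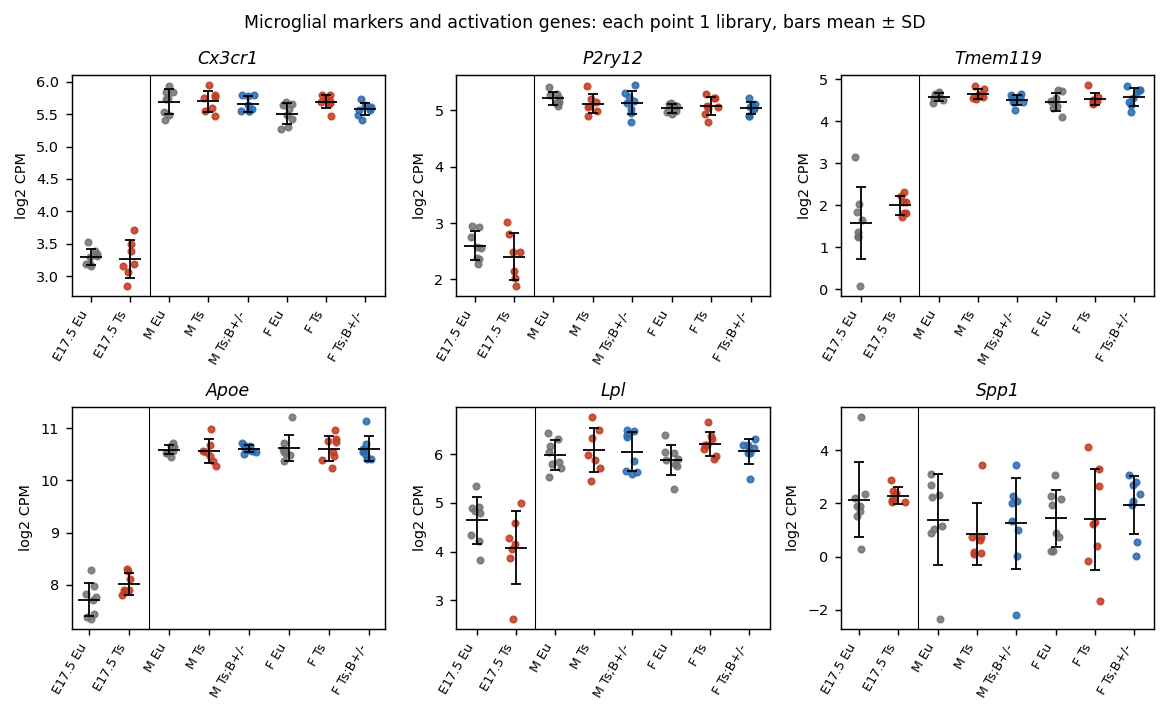
Levels in log2 CPM (vertical axis) of the 3 defining microglial markers and of the activation genes *Apoe*, *Lpl* and *Spp1*, by group (horizontal axis; abbreviations Eu, Ts, Ts;B+/-, M and F for euploid, Ts65Dn, Ts65Dn;Brwd1+/-, male and female), with 1 point per library and bars at the mean ± SD. *Apoe* lies between 10.24 and 11.20 in all adult libraries, while *Spp1* spans from -2.33 to 4.13.

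With both sexes fitted together, the mean effect of Ts65Dn relative to euploid passed the test for 2 of 35 members, *Ctss* and *Fcer1g*, where 3.4% of all genes passed. There were 11 members with an unadjusted p under 0.05, and 13% of all genes. *Ctss* rose by 0.37 on the log2 scale (SE 0.07, adjusted p = 0.0011) and *Fcer1g* by 0.35 (SE 0.09, adjusted p = 0.0217). Without the libraries that go against their labels both still passed the edgeR test, *Ctss* at 0.33 (adjusted p = 0.00741) and *Fcer1g* at 0.35 (adjusted p = 0.0404). Next were *Cd68* at -0.19 (SE 0.06, adjusted p = 0.102), *Siglech* at 0.16 (adjusted p = 0.114) and *Ptprc* at 0.26 (adjusted p = 0.13). Of the 35 members 24 were higher and 11 lower (median 0.07 against 0.00 over all genes). Of 32 other microglial genes 28 were higher and none passed, and among the other activation genes *Gpnmb*, a lysosomal glycoprotein gene, rose by 0.73 (adjusted p = 0.0282). Of the markers of other cells, *Rgs5* of mural cells rose by 0.44 (adjusted p = 0.0261) and *Nefl* of neurons by 0.18 (adjusted p = 0.0211). Of the 8 border macrophage markers 1 was higher and 7 were lower, none passing.

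The mean effect of Ts65Dn;Brwd1+/- relative to Ts65Dn passed for none of 35 members and no gene by edgeR (0% of all genes), and DESeq2 called no member. The 1 member with an unadjusted p under 0.05 was *Cd68* (0.13, adjusted p = 0.921), and 5.11% of all genes reached that level. *Ctss* had a mean log2 fold change of -0.10 (SE 0.07) and *Fcer1g* of -0.14 (SE 0.09).

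The difference between the sexes in the effect of Ts65Dn was tested as an interaction, and no member or other gene passed by edgeR (0% of all genes; no member by DESeq2). Unadjusted, p was under 0.05 for 11.1% of all genes and for 2 members: *Aif1*, with a female minus male difference in log2 fold change of -0.60 (SE 0.22, unadjusted p = 0.0087, adjusted p = 0.315), and *P2ry13*, with 0.28 (unadjusted p = 0.0354, adjusted p = 0.412). For the genes that rose in Ts65Dn females, the differences were 0.17 for *Ctss* (SE 0.15), 0.29 for *Irf8* (SE 0.16), 0.17 for *Ptprc* (SE 0.18) and 0.28 for *Fcer1g* (SE 0.18). Thus *Irf8* and *Ptprc*, past the threshold in females, and *Aif1*, past it in males, were not shown to respond differently in the sexes. For Ts65Dn;Brwd1+/- relative to Ts65Dn the interaction likewise passed for no gene (0% by edgeR; no member by DESeq2). Here *Fcer1g* alone had an unadjusted p under 0.05 (-0.38, unadjusted p = 0.0385, adjusted p = 1), as did 3.73% of all genes.

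Between euploid sexes, 1 of 34 members passed, where 3.71% of all genes did. An unadjusted p under 0.05 was reached by 5 members and by 16.8% of all genes. The member that passed was *P2ry13*, which ranged from 3.41 to 3.82 log2 CPM (median 3.66) in males and from 3.26 to 3.51 (median 3.38) in females, none of whom lay above the male median. It was lower in females by a log2 fold change of -0.25 (SE 0.07, adjusted p = 0.0777), and of -0.23 (SE 0.07, adjusted p = 0.134) without B85, the library labelled female with male transcripts. Among markers of other cells, *Flt1* and *Pecam1* of endothelium were lower in females by log2 fold changes of -0.48 (adjusted p = 0.0674) and -0.33 (adjusted p = 0.0695), and *Snap25* of neurons by -0.22 (adjusted p = 0.0698), and their part in the result was not tested. *P2ry12* (-0.17, SE 0.05, adjusted p = 0.108) and *Cx3cr1* (-0.18, adjusted p = 0.295) were also lower in females, and *Aif1* (0.46, SE 0.16, adjusted p = 0.146) and *Fcrls* (0.37, adjusted p = 0.255) higher. In Ts65Dn, where B88 is among the males, none of 34 members passed the edgeR test between the sexes and none did by DESeq2. There, 0.00598% of all genes passed, and at an unadjusted p under 0.05 there were no members, where 4.38% of all genes reached that level.

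Finally, the members were compared with *Cx3cr1* across the 47 adult libraries, as deviations of log2 CPM from the means of the labelled groups. The libraries that go against their labels were kept, so differences of genotype and sex could enter through them. Of the 36 relations 29 were positive, and 10 had a permutation p, adjusted over the 36, under 0.1. The closest was *Siglech* (Pearson's r = 0.61 and Spearman's rho = 0.61, adjusted permutation p = 0.00276 for r), followed by *Csf1r* (r = 0.57), *P2ry12* (0.51), *P2ry13* (0.50), *Itgam* (0.47), *Laptm5* (0.43), *Gpr34* (0.39), the tetraspanin gene *Cd53* (0.38), *Lpl* (0.37) and the lipid receptor gene *Trem2* (0.34). By Spearman's rho 9 of these 10 were also under 0.1, the exception being *Lpl* (adjusted permutation p = 0.189). Both genes of a pair come from the same libraries and so share their depth and tissue makeup. Genes called between genotypes had low values over all libraries: *Irf8* had r = 0.10, *Ctss* 0.02, *Ptprc* -0.09, *Aif1* -0.14 and *Fcer1g* -0.19. Without the libraries farthest from the median of *Cx3cr1*, male euploid B139 and male Ts65Dn B45, 8 relations were under 0.1, of which 7 were among the 10. *Cd53*, *Lpl* and *Trem2* were no longer among them, and *Aif1* joined with a negative relation (r = -0.45, adjusted permutation p = 0.0156; rho = -0.42, adjusted permutation p = 0.0287), so that its value rests on these libraries.

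Within the sexes the relations were not alike in number. In the 23 male libraries 9 relations had an adjusted permutation p under 0.1 and the median r was 0.31, while in the 24 female libraries there were 0 such relations and the median r was 0.05. These counts are by Pearson's r; by rho, *Aif1* was under 0.1 in females (adjusted permutation p = 0.0468). For *Cd68*, r was 0.56 in males (rho = 0.51) and -0.53 in females (rho = -0.28), for *Aif1* 0.24 (rho = 0.12) and -0.57 (rho = -0.63), and for *Trem2* 0.68 (rho = 0.72) and 0.01 (rho = 0.09). Whether the sexes differ in these relations was not tested.

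These relations were also computed without the 7 libraries named above, an alternative added after the data were seen. Over both sexes 10 were then under 0.1, of which 9 were among the original 10, and *Aif1* was at r = -0.02. In the 19 remaining male libraries 2 were under 0.1, down from 9, and in the 21 remaining female libraries 0. For females without their 3 libraries r was -0.38 for *Cd68* (rho = -0.27) and -0.46 for *Aif1* (rho = -0.51), and for males without their 4 it was 0.52 and 0.35.

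**Figure D4:**
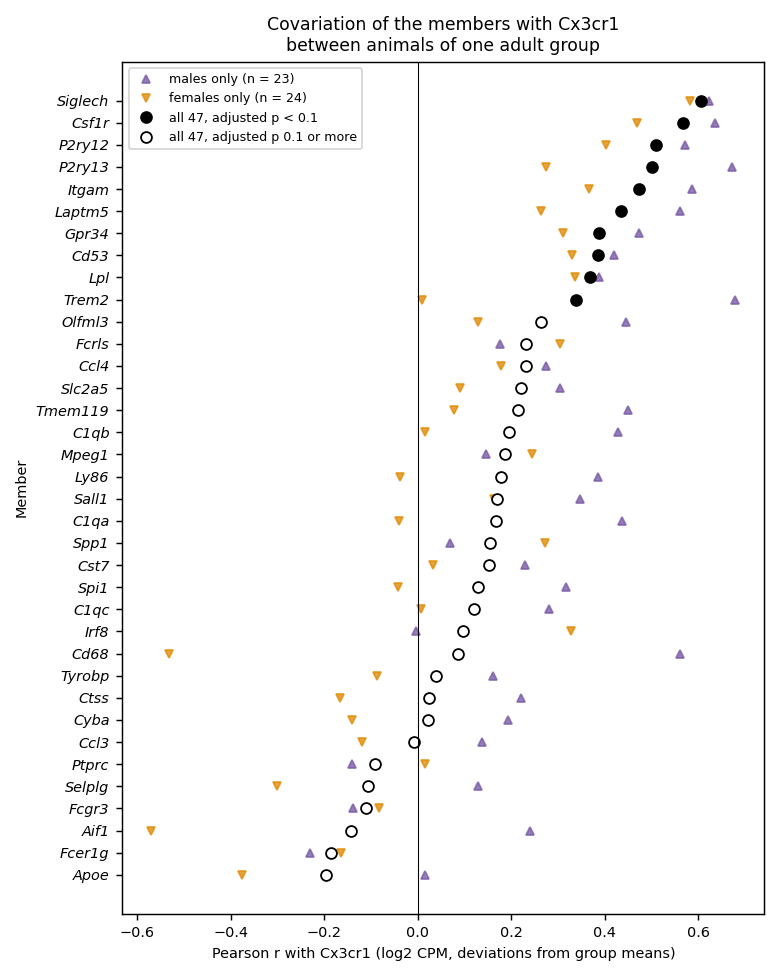
Pearson's r of each other microglia gene (vertical axis, ordered by r) with *Cx3cr1* (horizontal axis) across adult libraries, from deviations of log2 CPM from group means; circles stand for all 47 libraries, filled where the permutation p adjusted over 36 relations is under 0.1, and triangles for 23 male or 24 female libraries. The 10 filled circles run from 0.34 (*Trem2*) to 0.61 (*Siglech*), and *Ctss*, *Ptprc*, *Aif1* and *Fcer1g* lie at or below 0.02.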

How the data were processed

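RNA-seq libraries of polyadenylated RNA (TruSeq, single reads, 1 library per animal) were aligned by the authors to mm10 with HISAT2 and counted per gene with featureCounts 2.0.1, and reads of 2 flow cells were combined per library. The deposited tables hold raw counts of 27179 genes, by Entrez identifier, of which 25275 could be named. Sex of the embryos is not given in the labels.

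Counts were normalized by TMM and tested with the quasi-likelihood test of edgeR 4.0.16 (limma 3.58.1, R 4.3.3) after filterByExpr with a minimum count of 10, with Benjamini-Hochberg adjustment over all genes tested and a threshold of 0.1. Each adult sex was fitted with its 3 genotypes, means over sexes and interactions came from a fit of all 6 adult groups, and sexes of 1 genotype were compared in fits of 2 groups. Levels are log2 CPM with a prior count of 0.5. The scripts were tested on simulated data. No pair of libraries agreed within sampling noise. Total counts were 14.9 to 137.1 M per library. In adults precision is limited mainly by the spread between animals, except for the lowest genes. At E17.5 several members had few reads in some libraries, so that depth limits their precision as well. No column was left unmapped.

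The members, the lists of other genes and the tests were chosen with earlier results of these data known. Values are given for the 3 markers, for members called in any comparison, for the 3 smallest p in each direction per genotype comparison, and for activation genes, and of other lists for genes called, at most 5 per list; values near 0 are in part given only for the comparisons of Ts65Dn with euploid. Alternatives were DESeq2 1.42.0, alone or with 3 factors of unwanted variation (RUVr), other normalizations, filters, thresholds and fits, blocks, and the removal of libraries. Per-kilobase levels use the exon length of GENCODE vM21 genes.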

Additional observations from a re-analysis of the deposited data

Results flagged for a closer look

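In 178 sets of 1 member in 1 group, 21 values, in 16 libraries, stood apart from the other libraries of their group by Dixon's criterion, which chance meets in about 1 in 20 sets; all values are log2 CPM. Of these, 3 were in female Ts65Dn;Brwd1+/- B176: *Sall1* at 4.72, *Cd68* at 3.14 and *Apoe* at 11.1. In female euploid B125 *Cd68* was at 3.45 and *Apoe* at 11.2, the highest of the group in both. The library labelled female euploid B85, with the sex-linked transcripts of a male, had *Sall1* at 6.96. In female Ts65Dn, T141 was high in *Tmem119* (4.87) and *Csf1r* (7.09), B53 was low in *Cx3cr1* (5.48) and B56 low in *P2ry13* (3.11). In female Ts65Dn;Brwd1+/- B166 *Lpl* was low, at 5.49.

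In males, *Fcrls* was low in Ts65Dn;Brwd1+/- B51 (3.59), *Aif1* low in euploid B139 (1.30), and *Spp1* low in euploid B110 (-2.33) and high in Ts65Dn B88 (3.43), the library with the transcripts of a female. At E17.5, euploid replicate 3 was high in *Cd68* (3.15) and *Spp1* (5.22), and euploid replicate 8 was low in *Selplg* (-2.15). Among E17.5 Ts65Dn embryos, *Ptprc* was low in replicate 1 (-0.81), *Cyba* stood at 2.19 in replicate 5, and *Aif1* was low in replicate 7 (1.14). The causes were not tested.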

How the results depend on the processing

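At E17.5 the count of members called stayed at 0 under every setting (each library left out in turn included) except DESeq2 with 3 RUVr factors, which called 3 (*Fcer1g*, *Ctss* and *Apoe*, higher) along with 24.7% of all genes. The replicate block also gave 0 members at E17.5; replicates of the same number did not deviate together (correlations from -0.133 to 0.229), so the samples were not treated as paired. The E17.5 titles also carry a longer number that is shared by embryos of both genotypes and whose meaning is not stated; as a block it gave 0 members, with 1.24% of all genes. Adult libraries share no numbers between groups. With 3 RUVr factors the adult counts were 3 in male and 11 in female Ts65Dn against euploid, 3 in female Ts65Dn;Brwd1+/- against euploid and 1 against Ts65Dn. The paper normalized its counts with RUVr and tested with DESeq2, but does not state the number of factors. For *Aif1* in male Ts65Dn against euploid, a threshold of 0.05, a fit of all 6 groups and a fit of only the 2 groups each gave 0 members, and in male Ts65Dn;Brwd1+/- against euploid the threshold of 0.05 gave 0; with 1 library left out these counts were 0 to 1. In female Ts65Dn against euploid, a threshold of 0.05, no filter and the fit of only 2 groups each gave 2 (*Irf8* and *Ctss*), and with 1 library left out the count was 2 to 6; *Ctss* and *Irf8* were called in all of these fits. In female Ts65Dn;Brwd1+/- against euploid, the fit of all 6 groups and the fit without B125 each gave 1 (*Ctss*), and with 1 library left out 0 to 1. For the mean of both sexes DESeq2 gave 4. Between euploid sexes DESeq2 gave 3, the fit without the library against its label 0 and without B125 2. Shares of all genes called under DESeq2 and RUVr factors in adults are not given here, so these counts say nothing particular to the members. For the correlation with *Cx3cr1*, females alone gave 0 relations, with or without their doubted libraries, and males without theirs 2. The causes were not tested, other than fewer libraries or a stricter threshold where that is the setting.

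The values that changed sign were not called. For *Cx3cr1* at E17.5 they were 0.00428 with at least 10 counts in every sample, 0.0297 with *Ddx3y* as covariate, 0.000258 without a filter, 0.0159 with upper-quartile normalization, and -0.0960 to 0.0645 with 1 library left out. For *Spp1* at E17.5 they were 0.47 with DESeq2, 0.0547 with RUVr factors, 0.17 with the replicate block, and -0.76 to 0.52 with 1 library left out. For *Cx3cr1* in male Ts65Dn against euploid they were -0.00177 with RUVr factors, -0.00268 with upper-quartile normalization, -0.0312 without libraries against their labels, and -0.0436 to 0.0395 with 1 left out. *P2ry12* was at -0.00490 in males and -0.00294 in females without those libraries, in Ts65Dn;Brwd1+/- against Ts65Dn and against euploid respectively, and at -0.0284 to 0.0804 and -0.0201 to 0.0239 with 1 left out. Depth limits *Cst7*, *Ccl3* and *Ccl4*, which had few or no reads per library, and *Selplg* at E17.5, which had 5 to 42. At E17.5 it also bears on other members with few reads in some embryos, such as *Siglech* (9 to 86), *P2ry13* (14 to 160) and *Gpr34* (15 to 148).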
